A study of Mus musculus with 18 samples.

Results

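The transcriptome of OSKM-ESCs was compared between day 18 and day 25 after the change of medium. OSKM-ESCs are mouse embryonic stem cells (ESCs) in which OCT4, SOX2, KLF4 and c-MYC, the reprogramming factors, were kept switched on with doxycycline (DOX). The members are the 4 RNA-Seq libraries labelled OSKM-ESC of day 18 (2 libraries) and day 25 (2 libraries), of 18 in the whole series, and all 12575 genes that exceeded 1 FPKM in at least 1 of those 4 libraries, of 55469 genes in the files. FPKM is the number of fragments per kilobase of transcript for a fixed number of mapped fragments, so it can be compared between genes. The 4 libraries of 2iL-ESCs of the same days were set beside them as cells that spent the same time in the other medium. The labels give the day of culture and no collection date.

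All 8 libraries came from Tet-On-OSKM/Oct4-GFP ESCs of a mixed strain, in which the F1 of C57BL/6 and 129S4/SvJae mice was crossed with the F2 of CBA/CaJ and C57BL/6J mice. Such cells carry the reverse transactivator M2rtTA in the Rosa26 locus, a polycistronic OSKM cassette in the Col1a1 locus and GFP driven by the distal Oct4 promoter, and they were derived and grown on mitomycin-treated fibroblast feeders. OSKM-ESCs were taken out of 2iL, which is N2B27 with the MEK inhibitor PD0325901, the GSK3 inhibitor CHIR99021 and LIF, and were cultured in N2B27 with DOX, whereas 2iL-ESCs stayed in 2iL. Both groups therefore hold the same transgenes and differ in DOX, in both inhibitors and in LIF together. No source used here says whether the 2 libraries of a group were separate cultures, so the p-values measure only the spread between these libraries, which may be technical.

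In 2iL, blocking MEK and GSK3 holds ESCs in the naive state, which resembles the epiblast before implantation and is marked by Esrrb, Tfcp2l1, Nanog and Zfp42. On the way to the post-implantation epiblast, cells pass through a formative state in which the de novo DNA methyltransferases and factors such as OTX2 and POU3F1 come on. Simple epithelial keratins, by contrast, belong to surface epithelia and trophoblast, and OSKM is known for switching epithelial genes on during reprogramming. The 7 pluripotency markers checked exceeded 1 FPKM in all 4 libraries. Pou5f1 was highest, with 781 and 810.5 FPKM at day 18 and 762 and 672 FPKM at day 25. Pou5f1 and Sox2 are also encoded by the DOX-driven cassette, so their levels do not check the cell state. Nanog, Zfp42, Dppa5a, Tdgf1 and Utf1 are not in the cassette. Of the markers of other cell types, 3 of 6 neural, 3 of 5 trophoblast, 4 of 5 mesoderm, 5 of 6 endoderm and 3 of 4 blood and endothelial genes stayed under 1 FPKM in all 4 libraries, among them Cdx2, Elf5 and Gata3, which define trophoblast. Sox1 and Hbb-bt were listed at 0. The others were Nes, Tubb3 and Pax6 (neural), with 11.97 to 16.1, 24.8 to 33.5 and 0.609 to 1.25 FPKM, Plet1 and Krt7 (trophoblast), with 4.23 to 8.22 and 0.737 to 2.79 FPKM, T (mesoderm), with 13.3 to 48.9 FPKM, Dab2 (endoderm), with 1.15 to 2.21 FPKM, and Pecam1 (endothelial), with 9.56 to 12.2 FPKM.

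From day 18 to day 25, 892 genes were higher and 919 were lower in OSKM-ESCs, which is 7.09% and 7.31% of the 12575 genes tested (limma on log2(FPKM + 1), adjusted p under 0.05). At the study's cutoff, a 2-fold change of the mean with an unadjusted p under 0.05, 570 genes were higher and 535 lower (4.53% and 4.25%), and a 2-fold change with an adjusted p left 377 and 412 (3.00% and 3.28%). With all 4 libraries but 1, fewer genes passed: 71 higher and 120 lower without day 18 replicate 1, 404 and 335 without day 18 replicate 2, 62 and 142 without day 25 replicate 1, and 276 and 448 without day 25 replicate 2. Where 4 counts of a gene group follow its count, they are those without each library in this same order. All counts of gene groups in OSKM-ESCs are to be read against the 7.09% higher and 7.31% lower over all genes. Of the 98 named genes called in OSKM-ESCs, 46 kept their call without each library in turn, Krt8, Krt18, Krt19, Anxa2, Lgals3, Gbx2 and all 3 Dnmt3 genes among them, and 23 lost it without any 1 library, among them Esrrb, Dppa2, Dppa4, Tet1, Vim, Mael and Ddx4. Both days differed from each other by a distance of 60.9 on the log2 scale over all genes, against 38.6 between the day 18 libraries and 39.6 between the day 25 libraries. Of the called genes, 180 of those higher and 241 of those lower moved by more than 1 on the log2 scale. The libraries of both days did not overlap for 8019 of the 12575 genes (63.8%), and for all 892 higher and all 919 lower genes. In 2iL-ESCs, the same interval gave 3946 higher and 2183 lower genes, or 31.5% and 17.4% of 12540 tested. Called genes were thus more numerous in 2iL-ESCs. Both days lay 68.7 apart there, against 37.5 between the day 18 libraries and 31.7 between the day 25 libraries. A test of the difference between both changes, the interaction of medium and day, covered 13564 genes. It gave 1079 genes (7.95%) with a larger and 2325 (17.1%) with a smaller log2 change in OSKM-ESCs. Larger and smaller refer here and below to the signed OSKM-ESC change minus the 2iL-ESC change.

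The genes higher and the genes lower in OSKM-ESCs behaved unlike each other when set beside 2iL-ESCs. Of the 892 higher genes, 448 (50.2%) were also higher in 2iL-ESCs, 102 were lower there, 244 were not called and 98 were not tested. Of the 919 lower genes, 165 (18.0%) were also lower in 2iL-ESCs, 227 were higher there, 414 were not called and 113 were not tested. Over all genes tested in 2iL-ESCs, 31.5% were higher and 17.4% lower, so the 18.0% is near the share over all genes. The interaction was called in the same direction for 347 (38.9%) of the higher genes and for 631 (68.7%) of the lower genes. Over all genes it was larger for 7.95% and smaller for 17.1%. These counts depend on scaling, as 1079 larger and 2325 smaller on FPKM became 1587 and 1710 under median-ratio scaling. Over the 11551 genes tested in both media the changes had a Pearson correlation of 0.209 and the same sign in 59.8%, a description across genes that share their libraries. The scatter of both changes shows the lower genes spread to both sides of the 2iL axis.

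**Figure D1:**
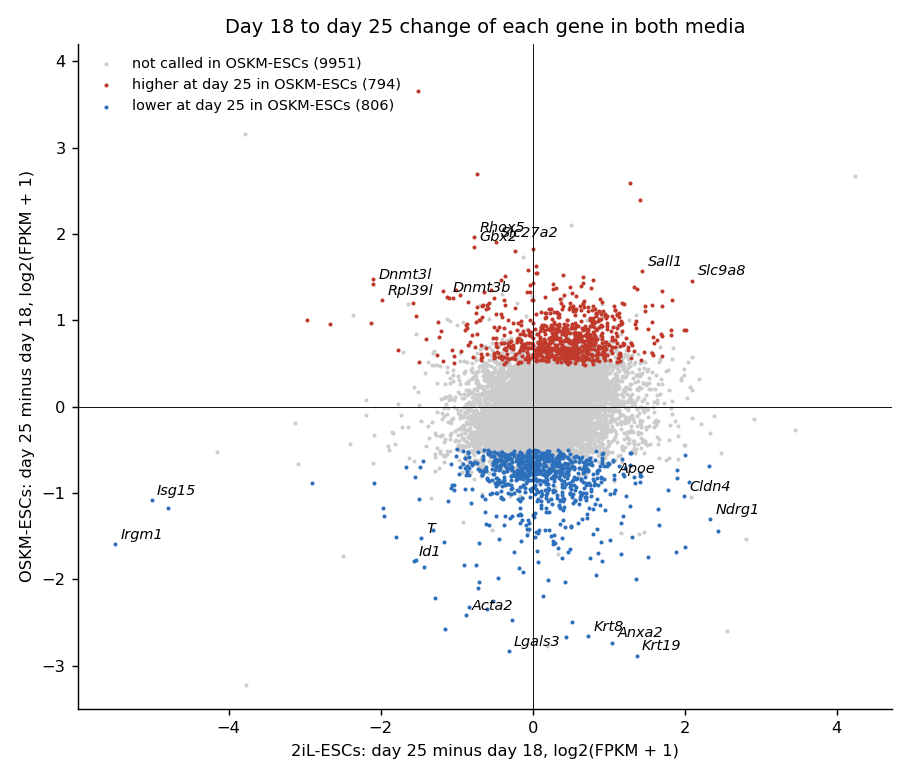
Each point is a gene tested in both media, with its day 25 minus day 18 change on the log2(FPKM + 1) scale in 2iL-ESCs on the horizontal axis and in OSKM-ESCs on the vertical axis. Of the 11551 genes, 794 were called higher (red) and 806 lower (blue) in OSKM-ESCs, and 2 genes lie outside the vertical range. Krt8, Krt19 and Anxa2 sit at the bottom right and Dnmt3l and Dnmt3b at the top left, where the changes in both media have opposite signs.

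Some properties of the libraries moved with the day. Summed FPKM was 447173 and 427641 at day 18 and 407071 and 410410 at day 25, and ribosomal protein genes took 18.6% and 15.5% and then 15.3% and 13.7% of it. Longer transcripts changed upward relative to shorter ones, with a median log2 change of -0.15, -0.05 and 0.06 from the shortest through the middle to the longest of 3 equal bins of transcript length, and so did GC-rich transcripts, with -0.17, -0.02 and 0.11 over 3 equal bins of GC content. In 2iL-ESCs the corresponding medians were -0.04, 0.11 and 0.25 for length and 0.01, 0.10 and 0.24 for GC content. Rescaled to TPM, 64.0% of the called genes in OSKM-ESCs were higher, in place of 49.3% on FPKM. Calls in OSKM-ESCs were skewed the same way, with 231 higher and 448 lower genes in the shortest bin and 420 and 165 in the longest. By GC content they were 104 higher and 334 lower in the lowest bin and 496 and 265 in the highest. The part of length, GC content and scaling in the calls was not tested.

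Genes of simple epithelia were among the largest decreases. Krt8 and Krt18 encode the paired keratins that form the intermediate filaments of simple epithelial cells. Krt8 stood at 195 and 179 FPKM at day 18 and 28.8 and 28.8 FPKM at day 25. Krt18 stood at 115 and 115 FPKM at day 18 and 17.4 and 16.9 FPKM at day 25. In both, the libraries of each day lay close together. The days did not overlap, as for all called genes. The mean was 6.51-fold lower for Krt8 (log2 change -2.66, SE 0.14, adjusted p = 0.00019) and 6.69-fold lower for Krt18 (log2 change -2.67, SE 0.14, adjusted p = 0.00019). Krt19, the smallest acidic keratin of the same tissues, fell from 33.3 and 32.6 FPKM to 4.37 and 2.94 FPKM (log2 change -2.88, SE 0.18, adjusted p = 0.000273). The change was the opposite for Krt8 and Krt19 in 2iL-ESCs, where both were higher by 0.73 and 1.37 from low levels of 2.28 ± 0.29 FPKM at day 18 and 4.45 ± 0.475 FPKM at day 25 for Krt8 (SD, n = 2). Krt18 did not pass the test there, at 0.44 on the log2 scale. By day 38, Krt8 was at 41.3 and 42.1 FPKM and Krt18 at 18.8 and 16.8 FPKM in OSKM-ESCs, closer to their day 25 levels than to those of day 18.

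Krt8 and Krt18 are neighbours with start sites 23.9 kb apart on chromosome 15, transcribed away from each other, and their promoters are shown because both genes lead the decrease together. The windows reach from 250 bases before to 50 after the start site in RefSeq on GRCm38.p6. The Krt8 window is chr15:102004293-102004592 on the minus strand and the Krt18 window is chr15:102027966-102028265 on the plus strand. S100a6 (chr3:90612644-90612943, plus strand) and Gbx2 (chr1:89931127-89931426, minus strand) are given beside them as a gene that fell and a gene that rose, each with the E-box CACGTG, the letters bound by MYC with MAX, in capitals.
Krt8: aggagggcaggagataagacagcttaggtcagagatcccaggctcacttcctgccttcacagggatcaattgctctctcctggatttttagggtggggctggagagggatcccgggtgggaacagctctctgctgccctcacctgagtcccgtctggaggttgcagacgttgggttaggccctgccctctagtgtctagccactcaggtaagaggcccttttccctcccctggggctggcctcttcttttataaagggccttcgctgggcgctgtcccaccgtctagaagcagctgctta
Krt18: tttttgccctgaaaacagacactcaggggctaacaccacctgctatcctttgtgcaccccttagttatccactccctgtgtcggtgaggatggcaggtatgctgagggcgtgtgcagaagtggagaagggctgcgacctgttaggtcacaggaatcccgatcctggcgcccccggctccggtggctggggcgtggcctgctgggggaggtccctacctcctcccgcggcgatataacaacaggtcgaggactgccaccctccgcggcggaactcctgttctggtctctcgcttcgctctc
S100a6: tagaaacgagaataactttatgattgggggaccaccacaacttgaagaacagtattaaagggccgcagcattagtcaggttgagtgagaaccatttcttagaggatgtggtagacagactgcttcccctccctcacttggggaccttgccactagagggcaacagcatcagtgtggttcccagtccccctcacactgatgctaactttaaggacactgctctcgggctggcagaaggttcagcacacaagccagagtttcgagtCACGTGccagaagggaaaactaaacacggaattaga
Gbx2: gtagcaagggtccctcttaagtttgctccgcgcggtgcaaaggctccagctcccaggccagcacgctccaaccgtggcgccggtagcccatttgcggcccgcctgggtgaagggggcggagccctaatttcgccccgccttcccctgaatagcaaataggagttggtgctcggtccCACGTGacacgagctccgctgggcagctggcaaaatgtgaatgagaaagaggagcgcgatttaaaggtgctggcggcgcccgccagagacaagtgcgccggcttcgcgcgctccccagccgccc
The search covered CACGTG, the octamer ATGCAAAT of OCT4 and the AP-1 motif TGANTCA, on both strands, and these motifs do not overlap one another. Among all 32851 promoter windows, 7.15% held CACGTG, 1.74% the octamer and 7.81% the AP-1 motif. None of the 3 is in the Krt8 or Krt18 window, and S100a6 and Gbx2 hold the E-box alone. The Krt8 window has 6 CG dinucleotides and the Krt18 window 17. No share over the called genes is given, since that check is void: only 75.0% of the tested genes matched a window.

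Across the keratin family, 10 of 50 genes passed the FPKM filter, and 7 were lower (5, 6, 5 and 6 without each library in turn), 0 higher and 3 not called, with a median log2 change of -1.16 against -0.04 over all genes tested. Krt14 and Krt16, both lower, exceeded 1 FPKM only at day 18 and so passed the filter through that day. Krt10 passed only through day 25 and was not called. Krt14, a keratin of basal epidermal cells, fell from 5.29 and 5.64 FPKM to 0.663 and 0.793 FPKM (log2 change -1.90, SE 0.16, adjusted p = 0.000937). Single genes of epithelia outside the family fell as well, picked with their values known. Krtdap, a keratinocyte differentiation gene, fell from 12.5 and 8.11 FPKM to 1.54 and 0.802 FPKM (log2 change -2.37, SE 0.24, adjusted p = 0.00187). Sfn, for the epithelial 14-3-3 sigma protein, fell from 175 and 211 FPKM to 54.9 and 48.8 FPKM (log2 change -1.87, adjusted p = 0.000888), and Dsp, for desmoplakin, which anchors keratin filaments at desmosomes, fell from 11 and 12.4 FPKM to 2.63 and 3.17 FPKM (log2 change -1.70, adjusted p = 0.00121). By day 38 Dsp stood at 8.71 and 9.1 FPKM in OSKM-ESCs, closer to day 18, while Krt14, Krtdap and Sfn stayed closer to day 25. The families named here were drawn up after the leading genes had been seen, so their counts describe the change and do not test it.

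The trophoblast list held 7 lower (3, 4, 4 and 4 without each library in turn) and 0 higher genes among the 11 of 16 that passed the filter, and its median was -0.80. Its lower members were Krt8, Krt18, Krt19, Krt7, Tead4, Ascl2 and Plet1, of which the keratins are general epithelial genes. Tead4, the transcription factor that specifies trophectoderm, fell from 12.3 and 15.6 FPKM to 6.64 and 5.02 FPKM (log2 change -1.13, SE 0.18, adjusted p = 0.00887). In 2iL-ESCs 9 of 13 tested members of the list were higher, against 31.5% of all genes tested there. Tead4 changed by 0.61 in 2iL-ESCs (adjusted p = 0.00396). The defining trophoblast genes Cdx2, Elf5 and Gata3 were under 1 FPKM throughout, as given above.

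Cell junction genes were lower as well. Claudins, the proteins of tight junctions, had 5 lower (1, 1, 0 and 1 without each library in turn) and 0 higher genes among the 6 of 23 that passed. Cldn4 stood at 88.4 and 116 FPKM at day 18 and 53.9 and 43.9 FPKM at day 25, a fall of both libraries (log2 change -1.04, SE 0.18, adjusted p = 0.0123), while in 2iL-ESCs it rose, with 23 ± 1.08 FPKM at day 18 and 94.2 ± 0.198 FPKM at day 25 (SD, n = 2). Cldn7 fell from 41 and 39.7 FPKM to 25.5 and 22.2 FPKM and Cldn6, which marks the early embryonic epithelium, fell from 123 and 117 FPKM to 62.8 and 59.5 FPKM. Their log2 changes were -0.74 and -0.96, with adjusted p = 0.0178 and 0.00663. E-cadherin did not follow them, as Cdh1 was at 121 and 149 FPKM at day 18 and 168 and 172 FPKM at day 25 and was not called (log2 change 0.34, adjusted p = 0.172). On the mesenchymal side, Vim for the intermediate filament vimentin fell from 135 and 132 FPKM to 82.2 and 77.8 FPKM (log2 change -0.73, adjusted p = 0.0159), and Fn1 for fibronectin rose from 79.7 and 98.3 FPKM to 176 and 155 FPKM (log2 change 0.89, adjusted p = 0.0141). Both moved the same way in 2iL-ESCs, with log2 changes of -0.70 for Vim (interaction -0.04, adjusted p = 0.832) and 1.99 for Fn1 (interaction -1.10, adjusted p = 0.00415). Over the epithelial and mesenchymal list, 5 of 16 genes were lower (1, 1, 0 and 1 without each library in turn) and 1 was higher.

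Calcium-dependent membrane proteins fell next to the keratins. Annexins bind phospholipid membranes when calcium rises, and 8 of the 9 that passed the filter were lower (4, 5, 5 and 7 without each library in turn) and 1, Anxa11, was higher. Anxa2 stood at 135 and 110.3 FPKM at day 18 and 16.7 and 18.3 FPKM at day 25, a 7.01-fold lower mean (log2 change -2.73, SE 0.16, adjusted p = 0.000245). Anxa1 fell from 27 and 22.4 FPKM to 3.05 and 4.01 FPKM (log2 change -2.51, SE 0.17, adjusted p = 0.000349), and Anxa5 fell from 61 and 53.2 FPKM to 8.96 and 9.57 FPKM (log2 change -2.50, SE 0.15, adjusted p = 0.000245). Anxa3 followed them with a log2 change of -2.34, going from 64 and 55.1 FPKM to 11.6 and 10.3 FPKM (adjusted p = 0.000319). In 2iL-ESCs Anxa2 and Anxa5 were higher at day 25, by 1.05 and 0.51 on the log2 scale, while Anxa3 was lower there too, with a log2 change of -0.60. S100 proteins, small calcium sensors that partner annexins, had 6 lower (3, 4, 3 and 4 without each library in turn) and 0 higher genes among the 7 of 16 that passed. S100a1, which was lower, and S100a13, which was not called, exceeded 1 FPKM only at day 18 and so passed the filter through that day. S100a6 fell from 98.2 and 59.9 FPKM to 11.2 and 12.9 FPKM (log2 change -2.58, SE 0.23, adjusted p = 0.00112). In 2iL-ESCs it fell too, and the interaction still passed, at -1.42 (adjusted p = 0.0162). Lgals3, for the carbohydrate-binding galectin-3, fell from 28 and 24.2 FPKM to 3.05 and 2.54 FPKM, 9.32-fold on the means (log2 change -2.83, SE 0.15, adjusted p = 0.00019). Acta2, smooth muscle actin, fell from 38.3 and 36.8 FPKM to 6.82 and 5.68 FPKM (log2 change -2.42, SE 0.15, adjusted p = 0.000273).

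The fibroblast libraries of the series express several of these genes, and the cells were grown on feeders, so the fibroblast markers were set beside them. The series holds no library of the feeders, and its fibroblast libraries are not labelled as mitomycin-treated. The 9 fibroblast markers summed to 30.2 and 37.0 FPKM at day 18 and 19.7 and 20.1 FPKM at day 25, and 3 of the 9 were under 1 FPKM in all 4 libraries. Of the wider fibroblast list, 16 of 22 genes passed the filter, of which 7 were lower (1, 3, 2 and 4 without each library in turn), Acta2 among them, and 1 was higher, the collagen chain gene Col6a2 (log2 change 0.72, adjusted p = 0.039). Postn, a matrix protein of fibroblasts, fell from 4.14 and 3.57 FPKM to 0.803 and 0.941 FPKM (log2 change -1.37, SE 0.17, adjusted p = 0.00406). Lox, which crosslinks collagen, fell from 2.01 and 2.46 FPKM to 0.364 and 0.599 FPKM, and Col1a2 and Col3a1, fibrillar collagen chains, changed by -0.65 and -0.61 on the log2 scale (adjusted p = 0.0123, 0.0299 and 0.033). S100a4 fell from 3.31 and 2.76 FPKM to 0.454 and 1.03 FPKM, and 51.7% of its exon bases lie in exons of another gene. Col1a1, the most abundant of the 9 markers in the fibroblast libraries, was not called, with 6.2 and 10.7 FPKM at day 18 and 5.79 and 5.05 FPKM at day 25 (log2 change -0.52, SE 0.23, adjusted p = 0.152). Against the fibroblast (MEF) libraries of the series, Col1a1 at day 18 stood at 1.50% of its fibroblast level and Anxa2, Anxa5 and Lgals3 at 12.1%, 13.5% and 19.6% of theirs. At day 25 the same genes stood at 0.962%, 1.73%, 2.20% and 2.10%. S100a6 and Acta2 were at 4.40% and 3.21% at day 18 and at 0.669% and 0.534% at day 25. Other fibroblast genes fell more than Col1a1 on this scale, Postn from 4.80% to 1.09%, Lox from 0.441% to 0.0949% and S100a4 from 0.341% to 0.0831%, while Col1a2 went from 1.59% to 0.935% and Col3a1 from 3.93% to 2.35%. Krt8 and Krt18 averaged 3.08 and 9.14 FPKM in the fibroblast libraries, under their level in OSKM-ESCs on both days, whereas Krt19 averaged 25.5 FPKM there, so that it stood at 129% of the fibroblast level at day 18 and 14.3% at day 25. In a bulk library, fewer cells of a type and less RNA per cell cannot be told apart.

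**Figure D2:**
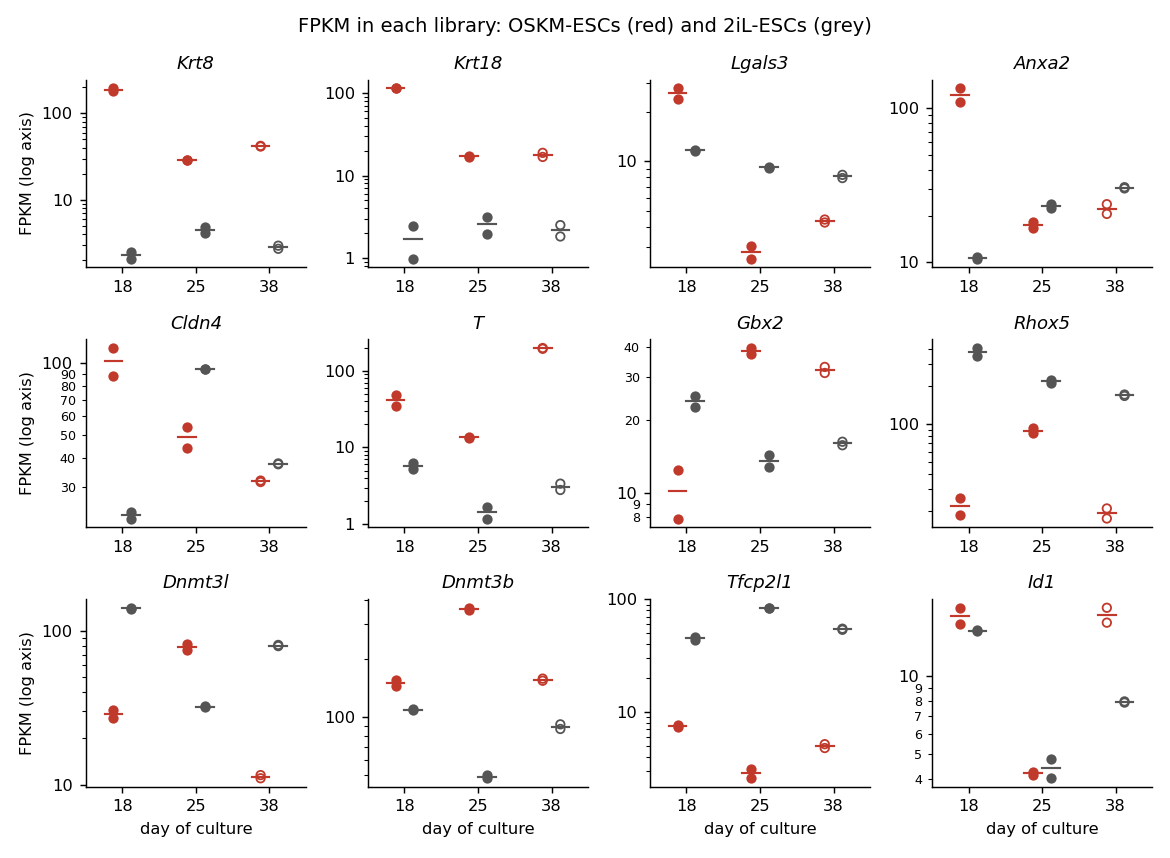
FPKM of 12 genes in each library on a log axis, by day of culture, for OSKM-ESCs (red) and 2iL-ESCs (grey). Points are libraries, bars are means of 2, and open points are the day 38 libraries, which entered none of the tests. Krt8, Krt18, Lgals3 and Anxa2 fell from day 18 to day 25 in OSKM-ESCs and stayed low at day 38, whereas T fell to 13.8 and 13.3 FPKM and then stood at 194 and 198 FPKM.

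Part of the interferon signalling and antigen presentation genes fell, with 7 lower (2, 4, 2 and 3 without each library in turn) and 0 higher among the 15 of 21 that passed the filter and a median of -0.56. Most fell in 2iL-ESCs too, where 13 of 16 tested members were lower and 1 was higher, against 17.4% and 31.5% of all genes tested there. The signed interaction was called above 0 for 10 genes of the list and below 0 for 3, against 7.95% and 17.1% of all genes tested. For a gene that fell in both media, a value above 0 is a larger fall in 2iL-ESCs. B2m, the light chain of MHC class I, fell from 74.3 and 69.3 FPKM to 19.6 and 24 FPKM (log2 change -1.68, SE 0.15, adjusted p = 0.00123), and in 2iL-ESCs it rose by 0.47. Psmb8, a subunit of the immunoproteasome that cuts peptides for MHC class I, fell from 9.21 and 8.14 FPKM to 2.08 and 1.07 FPKM (log2 change -1.94, SE 0.21, adjusted p = 0.00246). The class I heavy chain H2-D1 fell from 15.1 and 16.5 FPKM to 9.33 and 8.24 FPKM (log2 change -0.78, adjusted p = 0.0146). Isg15, an interferon-induced ubiquitin-like protein, was lower in both media, from 3.27 and 1.87 FPKM to 0.543 and 0.76 FPKM in OSKM-ESCs (log2 change -1.09, adjusted p = 0.0229) and with a log2 change of -5.01 in 2iL-ESCs. Its fall was thus larger in 2iL-ESCs, with an interaction of 3.93 (adjusted p = 0.000352). Among interferon-inducible GTPases, Gbp2 fell from 25.1 and 19.6 FPKM to 2.61 and 3.74 FPKM (log2 change -2.49, SE 0.19, adjusted p = 0.000676), and all 4 guanylate-binding proteins that passed the filter, of 11, were lower (2, 2, 2 and 2 without each library in turn), as were 3 of 4 tested in 2iL-ESCs. Gbp3, Gbp4 and Gbp7 exceeded 1 FPKM only at day 18 in both media. They passed the filter through the day at which they were high, so the family count is no support for a shared fall. Of the immunity-related GTPases, 1 of the 4 that passed was lower, Irgm1, and 3 were not called, whereas 3 of 4 were lower in 2iL-ESCs. At day 38 Gbp2, Psmb8, Isg15, H2-D1 and Irgm1 were near or above their day 18 levels in OSKM-ESCs, with Gbp2 at 21.6 and 22.4 FPKM. B2m, at 29.8 and 31.7 FPKM, stayed closer to day 25.

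Several stress and early response genes were lower. Of the amino acid response list, the targets of ATF4 that cells switch on when amino acids run short, all 26 passed the filter, 9 were lower (3, 4, 3 and 3 without each library in turn), 2 were higher and 15 were not called. Nupr1, a stress-induced chromatin protein, stood at 53.4 and 42.5 FPKM at day 18 and 15.7 and 15.2 FPKM at day 25 (log2 change -1.57, SE 0.16, adjusted p = 0.00188). Chac1, which degrades glutathione, fell from 22.1 and 25.8 FPKM to 7.83 and 7.6 FPKM (log2 change -1.51, SE 0.15, adjusted p = 0.00162), and the transcription factor gene Atf3 fell from 5.02 and 5.08 FPKM to 1.19 and 1.34 FPKM (log2 change -1.42, SE 0.16, adjusted p = 0.00268). Ddit4, an inhibitor of mTORC1, and Asns, for asparagine synthetase, changed by -0.82 and -0.78 (adjusted p = 0.0123 and 0.0137), while Slc7a5, a transporter of large neutral amino acids, rose by 0.77 (adjusted p = 0.0272). In 2iL-ESCs the list went the other way, with 17 of 25 tested genes higher and 1 lower. Over all genes tested there, 31.5% were higher and 17.4% lower. The interaction was smaller in OSKM-ESCs for 15 genes of the list and larger for 0, against 17.1% and 7.95% of all genes tested. At day 38 Chac1, Atf3, Ddit4 and Asns were above their day 18 means in OSKM-ESCs. Nupr1 lay between its levels of both days, and Slc7a5 stayed at its day 25 level. Among the LIF and STAT3 targets, 2 of 12 were lower, Gbp2 and Junb, an AP-1 subunit that fell from 26.6 and 38 FPKM to 10.5 and 10.9 FPKM (log2 change -1.49, SE 0.18, adjusted p = 0.00381). Fosb, another AP-1 subunit, rose from 2.3 and 2.99 FPKM to 10.8 and 11.5 FPKM (log2 change 1.74, SE 0.16, adjusted p = 0.00121), so the AP-1 genes did not share a direction.

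Among the genes with the largest increases that were also called in the interaction were Gbx2, Wt1, Pcdh1, Slc27a2, Jph4 and Rhox5. Gbx2, a homeobox gene that acts downstream of LIF in naive cells, stood at 7.88 and 12.5 FPKM at day 18 and 37.5 and 39.6 FPKM at day 25, so its day 25 libraries lay close together and above both of day 18 (log2 change 1.85, SE 0.20, adjusted p = 0.00267). In 2iL-ESCs it fell, with a log2 change of -0.77 (adjusted p = 0.00333), and 43.5% of its exon bases lie in exons of another gene. Wt1, for the zinc finger factor of kidney and gonad development, rose from 2.24 and 2.9 FPKM to 13.3 and 13.3 FPKM (log2 change 2.01, SE 0.15, adjusted p = 0.000706). Pcdh1, a protocadherin of cell adhesion, rose from 3.79 and 5.5 FPKM to 23.4 and 21.9 FPKM (log2 change 2.08, SE 0.18, adjusted p = 0.000888). Slc27a2, which carries very long-chain fatty acids, rose from 4.46 and 5.54 FPKM to 21.4 and 21.3 FPKM (log2 change 1.91, SE 0.15, adjusted p = 0.000706), and Jph4, for a junctophilin that links the endoplasmic reticulum to the plasma membrane, rose from 1.63 and 2.32 FPKM to 8.35 and 7.02 FPKM (log2 change 1.55, adjusted p = 0.00285). Rhox5, an X-linked homeobox gene, rose from 25.7 and 18.7 FPKM to 93.2 and 84 FPKM (log2 change 1.96, SE 0.18, adjusted p = 0.00121) while it fell in 2iL-ESCs, with a log2 change of -0.77, where it remained far above, at 376 ± 40.4 FPKM at day 18 and 219.7 ± 7.94 FPKM at day 25 (SD, n = 2). By day 38 Rhox5 was back at 17.6 and 21.1 FPKM in OSKM-ESCs. Wt1, at 1.34 and 1.34 FPKM, and Slc27a2, at 4.57 and 4.5 FPKM, were then under their day 18 means. Gbx2 stayed high, at 33.1 and 31.3 FPKM, and Pcdh1 and Jph4 lay between their levels of both days.

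The formative and primed epiblast list had 8 higher (4, 7, 3 and 3 without each library in turn) and 1 lower genes among the 13 of 14 that passed, with a median of 0.99. Lef1, a transcription factor that acts with beta-catenin, rose from 5.83 and 12.2 FPKM to 28.3 and 28.3 FPKM (log2 change 1.63, SE 0.27, adjusted p = 0.0106). Sall2, a zinc finger gene, rose from 4.2 and 4.72 FPKM to 14.7 and 14.4 FPKM (log2 change 1.51, SE 0.14, adjusted p = 0.00128), and Sox3, a SOX2 relative of early neural cells, was at 6.32 ± 3.19 FPKM at day 18 and 17 ± 3.01 FPKM at day 25 (SD, n = 2; log2 change 1.36, SE 0.28, adjusted p = 0.0212). Zic2, which primes enhancers of the epiblast, rose from 26.5 and 37.2 FPKM to 69.1 and 69.9 FPKM and rose in 2iL-ESCs too, with log2 changes of 1.12 and 1.08. Fgf15 rose from 1.64 and 1.52 FPKM to 3.23 and 3.44 FPKM (log2 change 0.75, adjusted p = 0.0234). The usual formative factors were not called: Otx2 was at 10.2 and 8.67 FPKM at day 18 and 12.1 and 12.5 FPKM at day 25 (adjusted p = 0.133), and Pou3f1 was at 10.5 and 24.8 FPKM at day 18 and 31 and 35.2 FPKM at day 25 (log2 change 0.99, adjusted p = 0.0772). Fgf5, the marker of the post-implantation epiblast, stood at 3.09 and 4.23 FPKM at day 18 and 4.08 and 6.1 FPKM at day 25 (adjusted p = 0.238). The lower member was Cldn6, described above. The 4 spalt-like genes, a family chosen after the values were seen, were all higher (2, 4, 2 and 2 without each library in turn). Sall1 rose from 8.29 and 10.7 FPKM to 31.3 and 28.5 FPKM (log2 change 1.57, adjusted p = 0.00209), and Sall3 and Sall4, the family member that ESCs need for self-renewal, rose by 0.97 and 0.69 (adjusted p = 0.0154 and 0.0267).

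DNA methyltransferases were part of the increase. Dnmt3a and Dnmt3b write new methylation, and Dnmt3l is their cofactor without activity of its own. Dnmt3b stood at 144 and 155 FPKM at day 18 and 366 and 358 FPKM at day 25, an increase of 2.42-fold on the means (log2 change 1.27, SE 0.14, adjusted p = 0.00271). Dnmt3l stood at 27.2 and 30.8 FPKM at day 18 and 82.9 and 75.4 FPKM at day 25 (log2 change 1.42, SE 0.15, adjusted p = 0.00209), and Dnmt3a rose from 37.5 and 35 FPKM to 90.8 and 76.4 FPKM (log2 change 1.18, SE 0.15, adjusted p = 0.00447). The day 25 libraries were above those of day 18 for all 3 genes, as for every gene called higher. In 2iL-ESCs Dnmt3b and Dnmt3l fell instead, with 109 ± 0.872 FPKM at day 18 and 49.2 ± 1.44 FPKM at day 25 for Dnmt3b and 141 ± 1.38 FPKM at day 18 and 32.2 ± 0.441 FPKM at day 25 for Dnmt3l (SD, n = 2), and the interaction was 2.40 and 3.52 (adjusted p = 8.95e-05 and 8.95e-05). At day 38 Dnmt3l was at 11 and 11.5 FPKM in OSKM-ESCs, under its day 18 level. Dnmt3b, at 154 and 158 FPKM, and Dnmt3a, at 39.5 and 33.1 FPKM, were then near their day 18 levels. The maintenance enzyme gene Dnmt1 and Tet1, for an enzyme that oxidises methylcytosine, rose as well, by 0.58 and 0.68 (adjusted p = 0.0321 and 0.0245), which made 5 higher (3, 3, 3 and 3 without each library in turn) and 1 lower of the 14 genes of the methylation machinery that passed, of 15. Tet1 also rose in 2iL-ESCs, by 0.61. The Dnmt3b promoter (chr2:153649199-153649498, plus strand, GRCm38.p6 in RefSeq) is shown for its CG content of 30 dinucleotides, against a median of 7 over all windows. It holds none of the 3 motifs above.
Dnmt3b: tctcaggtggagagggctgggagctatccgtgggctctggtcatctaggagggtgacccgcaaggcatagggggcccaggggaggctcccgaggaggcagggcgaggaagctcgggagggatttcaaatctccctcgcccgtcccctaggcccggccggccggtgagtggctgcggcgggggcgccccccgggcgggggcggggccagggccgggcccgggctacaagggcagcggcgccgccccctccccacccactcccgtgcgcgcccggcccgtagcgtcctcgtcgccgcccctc

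Some germline genes that promoter methylation silences in somatic cells were higher at day 25. Of 23 listed, 13 passed the filter, and 5 were higher (2, 2, 2 and 2 without each library in turn) and 0 lower, with a median of 0.66. Most members were low, as only 2 exceeded 5 FPKM in any of the 4 libraries. The filter admits genes that exceeded 1 FPKM at day 25 alone, and without it the median over all 23 was 0.42. Mael, a factor of the piRNA pathway, stood at 1.23 and 0.782 FPKM at day 18 and 2.73 and 3.47 FPKM at day 25, and Ddx4, the germ cell helicase VASA, rose from 1.95 and 1.43 FPKM to 3.31 and 4.28 FPKM (adjusted p = 0.016 and 0.0262). Rpl10l and Rpl39l, ribosomal protein genes of the testis, rose from 2.52 and 2.8 FPKM to 6.83 and 8.54 FPKM and from 1.1 and 0.362 FPKM to 3.55 and 2.47 FPKM (log2 changes 1.24 and 1.23, adjusted p = 0.00485 and 0.0205). They are close copies of broadly expressed ribosomal protein genes, so their read assignment is uncertain. The interaction was larger in OSKM-ESCs for 11 genes of this list and smaller for 0, against 7.95% and 17.1% of all genes tested. By day 38 the levels were low again, with Mael at 0.142 and 0.286 FPKM and Ddx4 at 0.993 and 0.797 FPKM.

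**Figure D3:**
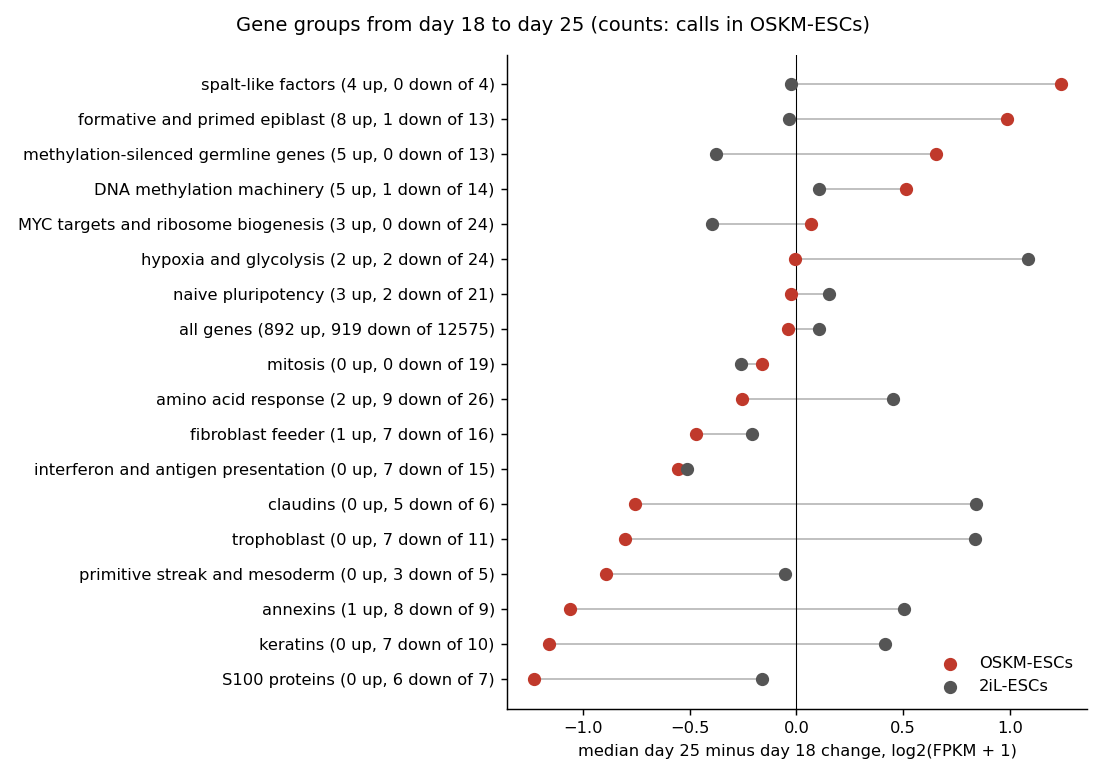
Median day 25 minus day 18 change of gene groups on the log2(FPKM + 1) scale in OSKM-ESCs (red) and 2iL-ESCs (grey), over the members that passed the filter in OSKM-ESCs, with the counts called higher and lower beside each name. The keratin, annexin, claudin and trophoblast medians lie below 0 in OSKM-ESCs and above 0 in 2iL-ESCs. Families were drawn up with the values known.

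Imprinted genes, expressed from the copy of one parent, moved in both directions, with 4 higher (1, 2, 1 and 1 without each library in turn) and 7 lower (2, 3, 2 and 5) among 26 of 31. These counts are 15.4% higher and 26.9% lower, against 7.09% and 7.31% of all genes tested. Meg3, the maternally expressed RNA, and Dlk1, its paternally expressed neighbour on chromosome 12, were both higher. Meg3 rose from 85.3 and 85.8 FPKM to 192 and 187 FPKM (log2 change 1.13, adjusted p = 0.00357) and Dlk1 rose from 2.88 and 4.01 FPKM to 6.5 and 7.21 FPKM (log2 change 0.83, adjusted p = 0.0214). Igf2, a fetal growth factor gene, and its neighbour H19 were both lower. Igf2 fell from 34.7 and 41.1 FPKM to 14.5 and 16.1 FPKM (log2 change -1.25, adjusted p = 0.00357), with 64.5% of its exon bases in exons of another gene, and H19 changed by -0.75 in OSKM-ESCs and by -0.86 in 2iL-ESCs. Sgce and Peg10, neighbours on chromosome 6, fell from 16.2 and 18.5 FPKM to 6.22 and 7.3 FPKM and from 139.9 and 147 FPKM to 74 and 76.8 FPKM, with log2 changes of -1.24 and -0.92 (adjusted p = 0.00359 and 0.00765).

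The 4 transgene factors were not called between the days by limma, and 0 of the 4 had an unadjusted p under 0.05. Values per gene do not tell RNA of the cassette from RNA of the endogenous genes. Pou5f1 (OCT4) was at the levels given above (log2 change -0.15, adjusted p = 0.493). Sox2 stood at 66.8 and 127 FPKM at day 18 and 105 and 108 FPKM at day 25, with 1 day 18 library far below the other 3 (adjusted p = 0.613). Klf4 stood at 23.8 and 42.9 FPKM at day 18 and 37.3 and 29.4 FPKM at day 25 (adjusted p = 0.914) and Myc at 67.9 and 95.4 FPKM at day 18 and 113 and 102 FPKM at day 25 (adjusted p = 0.167). The Klf4 and Sox2 libraries of day 18 spread widely, and leaving out the first of them turned the sign of both changes, to -0.36 for Klf4 and -0.25 for Sox2, neither called. In 2iL-ESCs Klf4 and Sox2 were higher at day 25, by 1.59 and 0.91 (adjusted p = 0.000823 and 0.00472).

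Naive pluripotency genes split, with 3 higher (0, 2, 0 and 0 without each library in turn), 2 lower (0, 1, 0 and 1) and 16 not called among 21 of 22, and a median of -0.03 (0.07 under TPM). These counts are 14.3% and 9.52% of the list, against 7.09% higher and 7.31% lower over all genes tested, whose median was -0.04. The split is therefore not read as a trait of the list. Tfcp2l1, a factor that sustains the naive state, was low and fell from 7.33 and 7.59 FPKM to 2.57 and 3.12 FPKM (log2 change -1.14, SE 0.15, adjusted p = 0.00511), whereas in 2iL-ESCs it rose, with 45 ± 2.11 FPKM at day 18 and 83.9 ± 0.519 FPKM at day 25 (SD, n = 2). Esrrb, an orphan nuclear receptor of the naive network, fell from 37.1 and 40.6 FPKM to 23.9 and 27.7 FPKM (log2 change -0.58, adjusted p = 0.0403) and rose by 0.57 in 2iL-ESCs. Dppa2 and Dppa4, partner chromatin proteins of early embryos, rose from 19.3 and 22.2 FPKM to 32.8 and 41.1 FPKM and from 54.1 and 54.8 FPKM to 74.7 and 81 FPKM (log2 changes 0.80 and 0.51, adjusted p = 0.0205 and 0.0481), and both fell in 2iL-ESCs, with log2 changes of -1.23 and -1.04. Nanog was at 34.3 and 40.1 FPKM at day 18 and 22.4 and 28.1 FPKM at day 25 and did not pass the test (log2 change -0.54, adjusted p = 0.0629). Zfp42 (REX1) was at 16.6 and 16.6 FPKM at day 18 and 15.8 and 15.7 FPKM at day 25 and was not called (log2 change -0.07, adjusted p = 0.731). Utf1, a chromatin factor of pluripotent cells, was at 210.3 and 363 FPKM at day 18 and 529 and 414 FPKM at day 25 and was not called (log2 change 0.76, adjusted p = 0.0824). Lin28a, which blocks let-7 processing, rose by 0.53 (adjusted p = 0.042) and fell by 1.17 on the log2 scale in 2iL-ESCs.

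**Figure D4:**
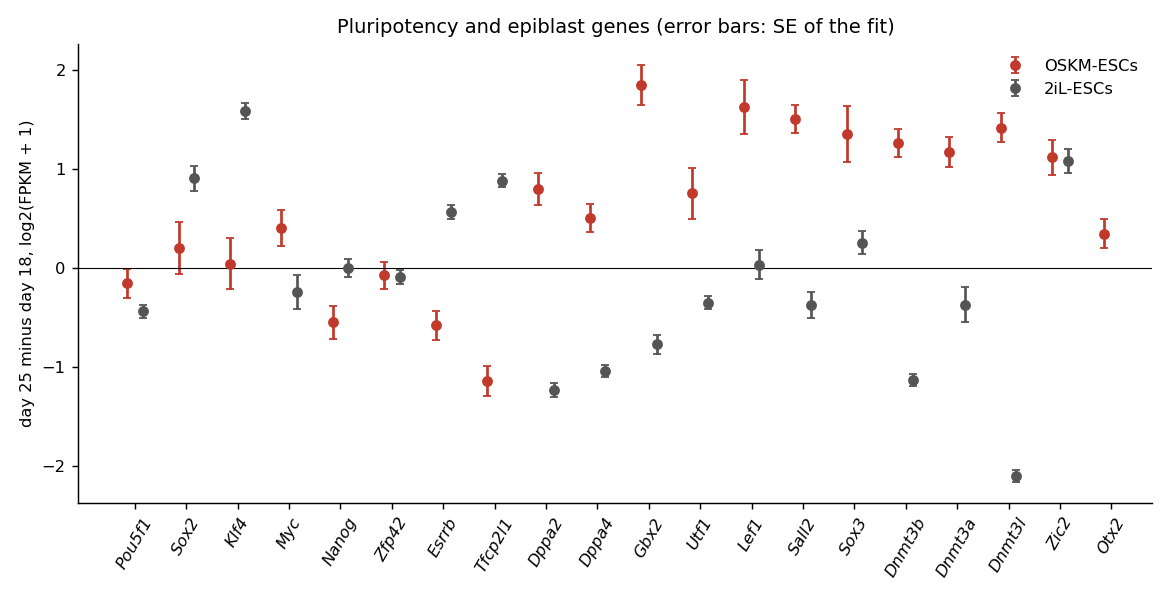
Day 25 minus day 18 change of 20 pluripotency, epiblast and DNA methylation genes on the log2(FPKM + 1) scale, with the SE of the fit as error bars, in OSKM-ESCs (red) and 2iL-ESCs (grey). Otx2 was not tested in 2iL-ESCs and has no grey point. Tfcp2l1 and Esrrb fell in OSKM-ESCs and rose in 2iL-ESCs, while Dppa2, Dppa4, Gbx2, Dnmt3b and Dnmt3l did the reverse.

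Signalling targets of the early embryo gave a mixed picture. Over all genes tested, 7.09% were higher and 7.31% lower, and the BMP and endoderm counts below are near that share. T (Brachyury), the marker of the primitive streak, stood at 34.3 and 48.9 FPKM at day 18 and 13.8 and 13.3 FPKM at day 25 (log2 change -1.53, SE 0.18, adjusted p = 0.00348), and in 2iL-ESCs it fell too, with a log2 change of -1.47. Cdx1, a WNT-responsive homeobox gene, fell from 4.42 and 8.1 FPKM to 2.27 and 1.13 FPKM (log2 change -1.41, SE 0.29, adjusted p = 0.0196), and Fgf8, a growth factor of the streak, fell from 9.1 and 12.5 FPKM to 6.83 and 4.07 FPKM (adjusted p = 0.0419). These made 3 lower (2, 1, 1 and 1 without each library in turn) and 0 higher genes among the 5 of 19 streak and mesoderm genes that passed. At day 38 T was at 194 and 198 FPKM in OSKM-ESCs. Among WNT targets, 2 of 12 were higher (1, 3, 0 and 0 without each library in turn) and 3 lower (1, 0, 0 and 0): Lef1 and Tcf7 (log2 change 0.77, adjusted p = 0.0377) rose, while Sp5 (log2 change -1.07, adjusted p = 0.0345), Bmp4 (log2 change -0.94, adjusted p = 0.0127) and Wnt6 fell. Id1, a target of BMP signalling, fell from 18.2 and 15.9 FPKM to 4.26 and 4.17 FPKM (log2 change -1.79, SE 0.14, adjusted p = 0.000775) and was the lower gene among the 10 members of the list of BMP ligands and ID targets that passed. It fell likewise in 2iL-ESCs, by 1.57 on the log2 scale, and stood at 16.1 and 18.4 FPKM at day 38 in OSKM-ESCs. Lefty2, an antagonist of NODAL, fell from 109.6 and 103 FPKM to 42.4 and 44.4 FPKM (log2 change -1.27, SE 0.14, adjusted p = 0.00262) and rose by 1.19 in 2iL-ESCs. ERK targets, 15 of 16 passing, had 4 higher (0, 3, 0 and 0 without each library in turn) and 2 lower (1, 2, 1 and 2) genes. Egr1 stood at 30 and 37.3 FPKM at day 18 and 59 and 51.7 FPKM at day 25 (log2 change 0.71, adjusted p = 0.0288), Etv5 rose by 0.70 (adjusted p = 0.0192) and Phlda1 fell from 18.6 and 21.6 FPKM to 7.47 and 6.89 FPKM (log2 change -1.36, adjusted p = 0.0025), while Etv4 was not called (log2 change 0.65, adjusted p = 0.098). Apoe, an apolipoprotein gene, was the lower member of 8 endoderm genes that passed, falling from 386 and 406 FPKM to 233 and 209.9 FPKM (log2 change -0.84, adjusted p = 0.012).

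In growth and metabolic programmes, the shares of genes called in OSKM-ESCs are to be read against the 14.4% called in either direction over all genes. For 2iL-ESCs the shares over all genes were 31.5% higher and 17.4% lower. For the interaction they were 7.95% larger and 17.1% smaller. Of 19 mitosis genes, 0 were called in either direction by limma and 3 had an unadjusted p under 0.05, with a median of -0.16. The hypoxia and glycolysis list had 2 higher and 2 lower genes among 24 of 26, with a median of -0.01 (0.088 under TPM), whereas 23 of 25 tested members were higher in 2iL-ESCs, and the interaction was smaller in OSKM-ESCs for 17. Ndrg1, a gene induced by low oxygen, fell from 4.98 and 6.72 FPKM to 1.7 and 1.81 FPKM (log2 change -1.30, SE 0.18, adjusted p = 0.00543) and rose by 2.33 in 2iL-ESCs. The MYC target and ribosome biogenesis list had 3 higher and 0 lower of 24 genes, against 1 higher and 17 lower in 2iL-ESCs. Of 84 cytosolic ribosomal protein genes that passed, 3 were higher and 3 lower in OSKM-ESCs, while 67 of 86 were lower in 2iL-ESCs, a count that fell to 16 under quantile normalization. Threonine metabolism had 0 higher and 3 lower of 11 genes, among them Tdh, the threonine dehydrogenase that mouse ESCs depend on, which fell from 124 and 126 FPKM to 73 and 71 FPKM (log2 change -0.79, adjusted p = 0.0123) and also fell in 2iL-ESCs. Ccne1, for cyclin E1, rose by 0.57 (adjusted p = 0.0348) and fell by 0.67 on the log2 scale in 2iL-ESCs. Sterol synthesis had 2 higher and 2 lower of 23 genes. Without 1 library, 0 or 1 genes of the hypoxia, MYC and sterol lists were called higher, and 0 of the threonine list lower.

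Other genes moved together in both media, and for these time in culture and other differences between the days cannot be told apart. Leading the increases were Slc9a8, a sodium-proton exchanger, Sall1, Sema5b, a semaphorin, Ppp1r10, a regulatory subunit of protein phosphatase 1, Lama5, a laminin chain, and Dclk2, a doublecortin-like kinase. Slc9a8 rose from 7.34 and 7.7 FPKM to 24.2 and 20.7 FPKM (log2 change 1.46, adjusted p = 0.00187) and by 2.10 in 2iL-ESCs. Lama5 rose from 18.5 and 24.3 FPKM to 54.2 and 45.4 FPKM, with log2 changes of 1.19 and 1.21 in OSKM-ESCs and 2iL-ESCs. The changes of Sema5b, Ppp1r10 and Dclk2 in OSKM-ESCs were 1.34, 1.24 and 1.18. Leading the decreases were Nt5e, the surface ectonucleotidase CD73, T, Zbp1, a sensor of Z-form nucleic acids, Gbp3, Id1 and Irgm1, of which Zbp1, Gbp3 and Irgm1 are interferon-inducible. Nt5e fell from 23 and 20.6 FPKM to 4.7 and 5.91 FPKM (log2 change -1.86, SE 0.16, adjusted p = 0.000888). Irgm1 fell from 12.7 and 9.48 FPKM to 3.04 and 2.9 FPKM in OSKM-ESCs (log2 change -1.59, adjusted p = 0.00242) and had a log2 change of -5.49 in 2iL-ESCs, a larger drop by the interaction (3.90, adjusted p = 0.000276). Zbp1 and Gbp3 changed by -1.51 and -1.77 in OSKM-ESCs and by -1.80 and -1.54 in 2iL-ESCs.

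Genes called in opposite directions numbered 102 for those higher in OSKM-ESCs and lower in 2iL-ESCs and 227 for the reverse. By the smaller of both changes, the first group was led by Vrtn, a gene linked to vertebral number, ahead of Dnmt3l and Rpl39l. Vrtn rose from 18.9 and 21.4 FPKM to 64.4 and 51.7 FPKM (log2 change 1.48, SE 0.16, adjusted p = 0.00262) and changed by -2.10 in 2iL-ESCs. Krt19 and Ndrg1, described above, belong to the second group.

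A few called genes rest on values whose assignment is in doubt. Of the 1811 called genes, 18 were listed at 0 in both libraries of a day, and 42 had more than 50% of their exon bases in exons of another gene, which an unstranded library cannot tell apart. Among the leading genes, the mitochondrial mt-Atp6 was listed at 0 at day 18 and at 719 and 2209.8 FPKM at day 25, and mt-Co3 was at 6.62 and 3.07 FPKM at day 18 and listed at 0 at day 25, although every cell uses both. Rab33b was listed at 0 at day 18 and at 5.34 and 5.57 FPKM at day 25. Fam220a occurs under 2 overlapping identifiers that moved in opposite directions, from 0.138 and 0.00232 FPKM to 12.9 and 12.1 FPKM for ENSMUSG00000083012 and from 15.5 and 17.2 FPKM to 3.24 and 3.26 FPKM for ENSMUSG00000118332. Mir3072, a microRNA locus with 69.9% of its bases in exons of another gene, was at 21.6 and 15.2 FPKM at day 18 and 51.5 and 58.4 FPKM at day 25. No direction is drawn from these 5 genes.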

How the data were processed

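The authors isolated poly-A RNA, aligned reads to GRCm38 (mm10) with STAR 2.7.1a, kept unique reads and obtained gene values with StringTie 2.0; Cuffdiff 2.2.1, which needs aligned reads, was not run here. The deposited FPKM values are normalized to library size and transcript length, and the deposited coverage signal is not normalized and served only as a check. It was 2.72 to 3.31 per unit of FPKM, and depth in reads is unknown. Groups came from the labels. U2surp and St13, each with a failed value, were left out.

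log2(FPKM + 1) of genes over 1 FPKM in at least 1 library was fitted with limma 3.58.1 in R 4.3.3 (lmFit, eBayes with trend), with Benjamini-Hochberg adjustment over all genes tested, and all adjusted p-values are from this model. The log2 changes, taken with 1 added to FPKM, understate low genes, while fold changes are plain ratios of mean FPKM. A low gene can pass the filter through the day at which it was higher, so counts and medians of groups with low members lean on the filter. Each medium was fitted alone and the interaction over 8 libraries. On simulated data of the OSKM-ESC comparison, 94 of 100 genes changed by 1 on the log2 scale and 100 of 100 changed by 2 were recovered, with 15 false calls among 12575 genes. An exact permutation test of 2 against 2 libraries cannot go under 0.333 and was not used.

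Lists, families and named genes were chosen with earlier results of these data known. Named were the 12 genes with the largest change in each direction that were called in OSKM-ESCs and in the interaction without overlap of libraries, the 6 in each direction called in both media, the transgene factors, cell type markers, and, from each list, up to 4 called and 2 uncalled members. Krt14, Sfn, Dsp, Anxa3, Sall3 and Vrtn, and other genes outside this rule, were added after their values were seen. Overlap of exons came from GENCODE M21 and promoters from RefSeq. Alternatives were other pseudocounts, filters, scalings and fits, the replicate block and leaving out libraries. The authors' other columns were not used.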

Additional observations from a re-analysis of the deposited data

Results flagged for a closer look

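For 77 of the 111 named genes, the change from day 18 to day 25 differed between OSKM-ESCs and 2iL-ESCs in the interaction test (limma, adjusted p under 0.05), against 25.1% of all genes tested. Values are the OSKM-ESC log2 change minus that of 2iL-ESCs. Many of these genes were named because they passed this test, so the differences are descriptions.

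Among epithelial genes and their neighbours the difference was -4.25 for Krt19, -3.39 for Krt8, -3.11 for Krt18, -1.93 for Krt14, -2.96 for Krtdap, -2.86 for Dsp, -1.70 for Sfn and -1.74 for Tead4. Among junction and matrix genes it was -3.03 for Cldn4, -2.64 for Cldn7, -1.46 for Cldn6, -0.56 for Cdh1, -1.10 for Fn1, -1.18 for Postn and 0.73 for Col6a2. For calcium-binding, lectin and cytoskeletal genes it was -3.78 for Anxa2, -3.01 for Anxa5, -2.19 for Anxa1, -1.74 for Anxa3, -1.42 for S100a6, -1.02 for S100a4, -2.52 for Lgals3 and -1.54 for Acta2.

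In the stress, signalling and metabolic groups the difference was -3.63 for Ndrg1, -2.72 for Ddit4, -2.46 for Nupr1, -2.27 for Atf3, -1.54 for Chac1, -1.23 for Asns, -1.42 for Junb, 1.71 for Fosb, -1.72 for Phlda1, 1.95 for Etv4, 0.50 for Etv5, -2.46 for Lefty2, -1.36 for Cdx1, -1.90 for Apoe, 1.24 for Ccne1, -0.60 for Ppp1r10 and -0.64 for Slc9a8. The immune genes had -2.15 for B2m, -1.84 for Psmb8 and -2.12 for Gbp2, but 3.93 for Isg15 and 3.90 for Irgm1, whose drop was larger in 2iL-ESCs.

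Pluripotency and epiblast genes had -2.03 for Tfcp2l1, -1.55 for Klf4, -1.14 for Esrrb, 1.11 for Utf1, 0.54 for Sall4, 1.17 for Sall3, 1.88 for Sall2, 1.54 for Dppa4, 2.03 for Dppa2, 2.62 for Gbx2, 1.59 for Lef1, 2.07 for Pou3f1, 0.78 for Fgf15, 1.70 for Lin28a and 3.58 for Vrtn. DNA methylation and germline genes had 3.52 for Dnmt3l, 2.40 for Dnmt3b, 1.55 for Dnmt3a, 3.21 for Rpl39l, 1.62 for Rpl10l, 1.44 for Mael, 0.88 for Ddx4 and 2.73 for Rhox5. The imprinted genes had 1.07 for Dlk1, 0.56 for Meg3, -0.52 for Peg10, -1.36 for Igf2 and -1.96 for Sgce. The other leading increases had 2.39 for Slc27a2, 1.90 for Wt1, 1.64 for Pcdh1 and 1.51 for Jph4.

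In the day 38 libraries, which entered no test, T averaged 196 FPKM and Cdx2 averaged 25.4 FPKM in OSKM-ESCs, above their levels in 2iL-ESCs of the same day.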

How the results depend on the processing

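Under each scaling, pseudocount and fit of all 4 libraries, the 98 named genes called in OSKM-ESCs kept their direction wherever tested, and between 94 and 98 of them kept their call, except under the filter at 5 FPKM, where 85 of 86 tested did, and without any filter on low values, where 0 did. That setting called 0 genes higher and 0 lower in OSKM-ESCs by limma, with 5066 genes at an unadjusted p under 0.05, and the cause was not tested. Of the 1811 called genes, 1501 kept their call under TPM, 1615 under quantile normalization, 1738 under median-ratio scaling and 1697 with a pseudocount of 0.1. The number of higher genes in OSKM-ESCs was 2314 with all 12 ESC libraries in a single fit, 570 at the study's cutoff of a 2-fold change and unadjusted p under 0.05, and 377 with a 2-fold change and adjusted p. The number of lower genes was 2473, 535 and 412 in the same order and 609 under TPM.

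Leaving out 1 library gave 62 to 404 higher and 120 to 448 lower genes in OSKM-ESCs, 1884 to 3760 and 859 to 2173 in 2iL-ESCs, and 481 to 948 larger and 1240 to 2332 smaller changes in the interaction. A day with 1 library left is then assumed to vary like the other. Without day 18 replicate 1, 53 of the 98 named calls remained, without day 18 replicate 2, 70, without day 25 replicate 1, 49, and without day 25 replicate 2, 60, all 98 in the same direction each time.

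The replicate block gave 1287 higher and 1426 lower genes in OSKM-ESCs, 4295 and 2551 in 2iL-ESCs, and 772 and 1850 in the interaction. Samples with the same number shared no source named in the labels, and their deviations correlated at -0.03 in OSKM-ESCs and 0.15 in 2iL-ESCs, so the number was not taken as a pairing.

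Scaling moved the median change of all genes in 2iL-ESCs from 0.12 on FPKM to -0.01 (median-ratio) or 0.25 (TPM), and that of the interaction from -0.12 to 0.01 with median-ratio scaling. The higher share of calls in 2iL-ESCs was accordingly 64.4% on FPKM, 49.1% and 76.1%, and the larger share in the interaction 31.7% on FPKM and 48.1%. In 2iL-ESCs the trophoblast, amino acid response and hypoxia lists had 9, between 14 and 21, and between 20 and 24 higher genes under these scalings and quantile normalization, and the MYC target list had between 11 and 20 lower genes. Some changes that were not called turned sign: Pou5f1 to 0.098 under quantile normalization, Zfp42 to 0.021 under TPM, Sox2 to -0.25 without day 18 replicate 1 (up to 0.66 without another library), and Klf4 to -0.36 without that library and to -0.12 without day 25 replicate 1 (up to 0.46 without another). Depth in reads is unknown, and with 2 libraries a day only the spread between them limits what could be called.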

Other observations

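The remaining groups were set against the 14.4% of all genes called in either direction in OSKM-ESCs. Of 18 p53 targets that passed the filter, 2 were lower and 0 higher, the epithelial Perp and the antiproliferative Btg2. Of 14 genes of the unfolded protein response, 2 were lower and 0 higher, Herpud1 and Dnajc3, both of which serve the endoplasmic reticulum. Of 10 heat shock genes, 1 was lower, the chaperone gene Dnajb1. Of 12 genes of Polycomb repressive complex 2, 1 was higher, Jarid2, which recruits the complex to its targets. Of 7 oncofetal RNA regulators, 2 were higher, Lin28a and Igf2bp1. Without day 18 replicate 1 or without day 25 replicate 1, 0 genes of these 5 lists were called. Families drawn up with the values known gave 4 lower (2, 3, 2 and 3 without each library in turn, in the order used above) and 0 higher genes among 4 clade B serpins, which inhibit intracellular proteases, and 3 lower (1, 2, 1 and 2) and 1 higher among 7 cathepsins, the proteases of lysosomes. Of the serpins, Serpinb9b, Serpinb9 and Serpinb6c exceeded 1 FPKM only at day 18. They passed the filter through the day at which they were high, so the serpin count is no support for a shared fall. The 11 protocadherins that passed split into 1 higher, Pcdh1, and 1 lower.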
